A study of Mus musculus with 11 samples.

Results

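The genes described here encode the protein subunits of oxidative phosphorylation, the 5 enzyme complexes of the inner mitochondrial membrane, together with cytochrome c. Members were the rows of the deposited table whose gene symbol names a subunit of complexes I to V or a cytochrome c, with assembly factors and pseudogenes left out. They came to 102 of 22259 genes, 13 encoded by the mitochondrial DNA and 89 by nuclear DNA. The 89 nuclear rows stand for 88 symbols, because Ndufb8 has 2 identifiers, of which ENSMUSG00000091471 held 0 counts in every library. Of 6 testis RNA libraries, 3 were from adult Ccer1+/+ (wild-type) and 3 from adult Ccer1-/- mice, all untreated. The Ccer1-/- mice carry frameshift deletions made with Cas9 in the coding sequence of Ccer1, which encodes a germline-specific nuclear protein of spermatids. Several mutant lines were made, and a line with a frameshift deletion was chosen for the study's work on pathology, but the line is not named beside the RNA sequencing. The study calls the samples of each genotype independent, and the p-values below measure the spread between these samples.

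Complex I (NADH dehydrogenase) and complex II (succinate dehydrogenase) feed electrons from NADH and succinate into the chain. Complex III (cytochrome bc1) passes them to cytochrome c, and complex IV (cytochrome c oxidase) passes them to oxygen. Complexes I, III and IV pump protons, and complex V (ATP synthase) makes ATP as the protons flow back. Mitochondrial DNA encodes 13 hydrophobic subunits, which are transcribed as long precursor RNAs inside the mitochondrion, whereas all other subunits, and the whole of complex II, are made from nuclear genes and imported. In germ cells of the testis several nuclear subunits exist as a germline form beside the ubiquitous one, such as the testis cytochrome c encoded by Cyct beside the somatic cytochrome c encoded by Cycs.

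A pair of mitochondrial genes is shown in full because they are the ones that did not follow the others below. In each, the reading frame ends inside the frame of the next gene of the same messenger RNA. The sequences are the annotated GENCODE vM1 transcripts, whose mitochondrial coordinates equal those of GRCm38, and capitals mark the bases that also belong to the next gene, 43 bases of mt-Atp6 in mt-Atp8 and 7 bases of mt-Nd4 in mt-Nd4l.
mt-Atp8: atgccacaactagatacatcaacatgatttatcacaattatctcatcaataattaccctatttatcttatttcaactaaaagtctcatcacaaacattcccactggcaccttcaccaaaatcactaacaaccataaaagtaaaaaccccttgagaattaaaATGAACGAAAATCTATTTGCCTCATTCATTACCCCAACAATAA
mt-Nd4l: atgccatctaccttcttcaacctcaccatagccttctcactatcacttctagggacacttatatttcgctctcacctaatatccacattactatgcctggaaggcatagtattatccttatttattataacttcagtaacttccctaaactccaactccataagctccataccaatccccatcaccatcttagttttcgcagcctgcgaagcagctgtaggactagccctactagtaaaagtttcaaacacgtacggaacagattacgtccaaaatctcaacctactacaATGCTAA

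In mitochondrial coordinates mt-Atp8 runs from 7766 to 7969, mt-Atp6 from 7927 to 8607, mt-Nd4l from 9877 to 10173 and mt-Nd4 from 10167 to 11544. The mitochondrial gene mt-Nd6 lies on the other strand from 13552 to 14070 and overlaps the end of mt-Nd5, which runs from 11742 to 13565. The libraries were made without a step that marks strand, so reads over that overlap cannot be assigned to one gene by strand.

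The cytochrome c genes are shown by their promoters, because their ratio varied most between libraries among the paralog pairs compared below. Promoters were taken from RefSeq for GRCm38.p6, from 250 bases before to 50 bases after the start of the gene, and 71 of 88 nuclear symbols had one. The motifs searched, on both strands, were the core GCATGCGC that the factor NRF1 binds and the cAMP response element TGACGTCA. The response element is its own reverse complement, the NRF1 core is not, and the motifs share no letters where they occur in Cycs. The NRF1 core stood in 11 of 71 member promoters (15.49%) and in 3.049% of 27025 promoters of all genes, and the cAMP response element in 5 of 71 (7.042%) and in 2.031% of all. Cycs, on chromosome 6 at chr6:50566520-50566819 (minus strand), holds both motifs, given in capitals, which begin at -169 (cAMP response element) and -60 (NRF1 core) from the start. Cyct, at chr2:76360404-76360703 (minus strand), holds neither of these strings.
Cycs: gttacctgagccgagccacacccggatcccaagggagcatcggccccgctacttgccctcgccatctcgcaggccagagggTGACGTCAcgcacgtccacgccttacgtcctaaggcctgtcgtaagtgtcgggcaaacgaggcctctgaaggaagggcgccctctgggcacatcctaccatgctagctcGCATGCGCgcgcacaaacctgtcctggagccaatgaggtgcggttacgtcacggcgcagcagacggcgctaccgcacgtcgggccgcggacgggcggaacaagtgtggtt
Cyct: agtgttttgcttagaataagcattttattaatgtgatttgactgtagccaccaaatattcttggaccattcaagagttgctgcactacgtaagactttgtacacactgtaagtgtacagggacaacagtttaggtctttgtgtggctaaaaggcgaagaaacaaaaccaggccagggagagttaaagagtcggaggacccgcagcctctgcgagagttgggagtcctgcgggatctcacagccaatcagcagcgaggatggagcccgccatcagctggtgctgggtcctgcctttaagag

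Each library held 15970289 to 19621550 estimated counts, of which the 13 mitochondrial members took 0.4962% to 1.14% and the nuclear members 0.5609% to 0.7456%. Values below are CPM, read counts relative to a common library size after TMM scaling, and CPM per kilobase is CPM over the length of the longest annotated transcript. Every log2 fold change is given as Ccer1-/- relative to Ccer1+/+, and a gene was called at an adjusted p under 0.05 in edgeR's quasi-likelihood test over 15139 genes. Ccer1 was at 438.6, 609.5 and 528.9 CPM in Ccer1+/+ replicates 1 to 3 and at 82.1, 93.0 and 88.3 CPM in Ccer1-/-, which is a log2 fold change of -2.58 (standard error 0.15, adjusted p = 0.0007355 from edgeR). Over all genes the libraries did not group by genotype. Pearson's correlation of log2 counts across genes was 0.963 and 0.968 between Ccer1+/+ replicate 1 and replicates 2 and 3, and 0.983 to 0.988 between replicate 1 and the Ccer1-/- libraries, so results are also given without Ccer1+/+ replicate 1 and against it alone. Libraries were from whole testis, so fewer cells of a type and less RNA per cell cannot be told apart.

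Among the mitochondrial subunits, the RNAs of complex IV stood highest and those of complex I mostly lower. Per kilobase, mt-Co1, which carries the oxygen-reducing centre, averaged 2682 CPM over all libraries, mt-Co3 1871 and mt-Co2 1693. Below them came mt-Atp6, the proton channel subunit of complex V, at 616.5 CPM per kilobase, mt-Cytb of complex III at 495.7 and mt-Nd1, a membrane subunit of complex I, at 399.8. The remaining complex I RNAs ran from mt-Nd4 at 212.1 through mt-Nd2 (156), mt-Nd5 (131.6), mt-Nd4l (80.1) and mt-Nd3 (76.3) to mt-Nd6 at 14.5 CPM per kilobase, and mt-Atp8 was at 34.0. The highest nuclear members on the same scale were Cox4i1 of complex IV (442.3), the catalytic ATP synthase subunit Atp5b (378.8) and Uqcrc1, a core subunit of complex III (275.7). Such ranks depend on the annotated length, and messenger RNA was selected by its poly(A) tail, which mt-Nd6 RNA in mammals mostly lacks.

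**Figure D1:**
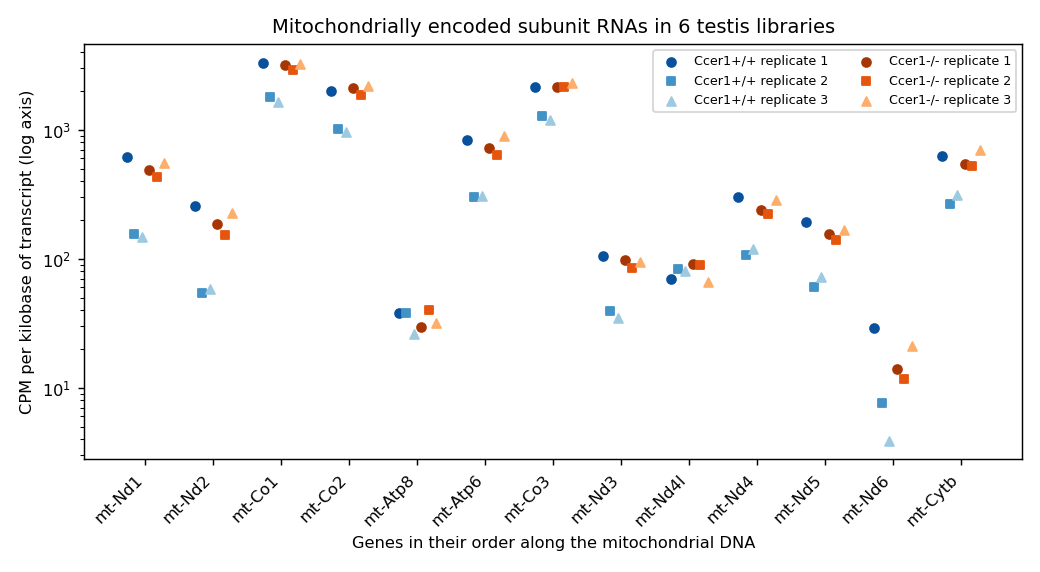
CPM per kilobase of transcript (log axis) of the 13 mitochondrially encoded subunit RNAs, in order along the mitochondrial DNA, with 1 point per library (blue Ccer1+/+, orange Ccer1-/-, a shape per replicate). For 11 of 13 genes Ccer1+/+ replicates 2 and 3 lie below all other libraries, and mt-Atp8 and mt-Nd4l do not show this.

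No mitochondrial subunit RNA was called between the genotypes. In the comparison of all 6 libraries 0 of 13 mitochondrial members and 0 of 84 tested nuclear members were called, against 0.00% of all genes higher and 0.00661% lower in Ccer1-/- (the latter being Ccer1). The smallest adjusted p among members was 0.786, shared by many. By DESeq2, 0 members were called as well, against 0.00661% of genes higher and 0.0264% lower. At an unadjusted p under 0.05, 2 mitochondrial and 1 nuclear member were higher in Ccer1-/- and 0 were lower, where 1.62% of all genes were higher and 1.27% lower. The members were mt-Co2, mt-Co3 and Cox6c.

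The cytochrome c oxidase RNAs of the mitochondrion had the smallest p among mitochondrial genes. In replicates 1, 2 and 3 mt-Co1 was at 5112, 2761 and 2536 CPM in the Ccer1+/+ libraries and 4941, 4498 and 5017 CPM in Ccer1-/-. Its log2 fold change was 0.47 (standard error 0.24, 95% interval -0.08 to 1.03). Ccer1+/+ replicate 1 lay above all the Ccer1-/- libraries, and Ccer1+/+ replicates 2 and 3 lay far below, so that the genotypes overlapped. Levels of mt-Co2, which takes electrons from cytochrome c, were 1373, 696.9 and 662 CPM in the Ccer1+/+ libraries and 1446, 1284 and 1487 CPM in Ccer1-/- (log2 fold change 0.63, standard error 0.26). For mt-Co3, the third core subunit, they were 1689, 1001 and 931.2 CPM in the Ccer1+/+ libraries and 1698, 1682 and 1801 CPM in Ccer1-/- (log2 fold change 0.52, standard error 0.21). In both, replicate 1 of Ccer1+/+ was close to the Ccer1-/- libraries, and its value lay inside their range.

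Most complex I RNAs spread widely within Ccer1+/+, mt-Nd4l excepted. The level of mt-Nd1 was 585.8, 149.6 and 141.7 CPM in the Ccer1+/+ libraries and 470.3, 414.7 and 533.4 CPM in Ccer1-/-, which is a log2 fold change of 0.69 with a 95% interval of -0.42 to 1.80. For mt-Nd2, another membrane subunit, the levels were 268.2, 56.4 and 61.0 CPM in the Ccer1+/+ libraries and 191.9, 158.5 and 235.8 CPM in Ccer1-/- (log2 fold change 0.60, standard error 0.54). In both genes Ccer1+/+ replicate 1 was the highest and replicates 2 and 3 the lowest libraries, beyond the Ccer1-/- libraries on either side. The membrane subunits mt-Nd3, mt-Nd4 and mt-Nd5 had log2 fold changes of 0.62, 0.50 and 0.51. The low RNA of mt-Nd6 was at 15.2, 3.96 and 2.02 CPM in the Ccer1+/+ libraries and 7.19, 6.01 and 10.9 CPM in Ccer1-/-, with a log2 fold change of 0.18 (standard error 0.62). In complexes III and V, mt-Cytb had one of 0.56 (standard error 0.29) and mt-Atp6 one of 0.64 (standard error 0.37), with mt-Atp6 at 571.4, 204 and 210.5 CPM in the Ccer1+/+ libraries and 491.9, 434 and 607.4 CPM in Ccer1-/-.

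Over the 13 mitochondrial members the log2 fold change was positive in 12 and negative in 1 (mt-Atp8), with a median of 0.52, where the median of all genes tested was 0.04. The genotypes did not separate in any of the 13 mitochondrial members. Of all genes, 5.20% had all Ccer1-/- libraries above all Ccer1+/+ ones and 3.14% had them all below. Without Ccer1+/+ replicate 1, 11 of 13 were called higher in Ccer1-/-, all except mt-Atp8 and mt-Nd4l, and the median was 1.07, where 9.21% of 15345 genes were called higher and 12.5% lower. The largest of these log2 fold changes were 1.66 in mt-Nd2 and 1.63 in mt-Nd1. Against Ccer1+/+ replicate 1 alone, 0 members were called, where 0.00% of all genes were higher and 0.00636% lower, the mitochondrial median was -0.18 and 10 of 13 were negative. The direction therefore depends on which Ccer1+/+ libraries stand for the wild type, as 10 of 13 mitochondrial members were positive against replicates 2 and 3 and negative against replicate 1.

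The short mt-Atp8 and mt-Nd4l RNAs did not follow. The level of mt-Atp8, a small subunit of the ATP synthase, was 7.73, 7.79 and 5.33 CPM in the Ccer1+/+ libraries and 6.03, 8.20 and 6.50 CPM in Ccer1-/-. For mt-Nd4l, a small membrane subunit of complex I, the levels were 20.9, 25.0 and 23.8 CPM in the Ccer1+/+ libraries and 26.9, 26.4 and 19.8 CPM in Ccer1-/-. Neither gene dropped in Ccer1+/+ replicates 2 and 3 as far as its partner on the same messenger RNA did. In Ccer1+/+ replicate 3 mt-Atp8 was at its lowest of all libraries, but relative to replicate 1 it fell less than mt-Atp6. Per kilobase, counts of mt-Atp8 were 4.52%, 12.7% and 8.45% of those of mt-Atp6 in replicates 1, 2 and 3 of Ccer1+/+ and 4.09%, 6.30% and 3.57% in Ccer1-/-. Counts of mt-Nd4l were 23.3%, 78.9% and 67.3% of those of mt-Nd4 in Ccer1+/+ and 37.9%, 39.9% and 23.5% in Ccer1-/-. The percentages were highest in Ccer1+/+ replicates 2 and 3 for both pairs. The mt-Atp8 counts were 87 to 155 a library, and reads over the shared bases, printed above in capitals, may have been given to either gene or to none. Nuclear copies of mitochondrial DNA and pseudogenes of nuclear subunits could also share reads with members.

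Nuclear subunits as a group lay slightly to the other side, with a large spread among themselves. The log2 fold change was positive in 33 and negative in 51 of 84, with a median of -0.07 and a range of -0.66 to 0.69. The 3 Ccer1-/- libraries were all above the 3 Ccer1+/+ libraries in 6 of 84 and all below in 0 of 84, where 5.20% of all genes were all above and 3.14% all below. Those 6 were Ndufb2, Uqcrc2, Cox6c, Cox7b2, Ndufa4 and Atp5h, chosen after their values were seen, and their log2 fold changes were 0.12 to 0.32. Without Ccer1+/+ replicate 1, 5 nuclear members were called higher and 34 lower, where 9.21% of all genes were called higher and 12.5% lower. The nuclear median was then -0.28 against -0.01 for all genes. Against Ccer1+/+ replicate 1 alone, the nuclear median was 0.19 and 71 of 84 were positive. As in the mitochondrial members, the sign turned with the Ccer1+/+ libraries used, since 59 of 84 nuclear members were negative against replicates 2 and 3 and positive against replicate 1. Over all 15325 genes tested in both comparisons the sign also turned in most, from positive to negative in 4816 and from negative to positive in 4659, and was the same in 5850.

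**Figure D2:**
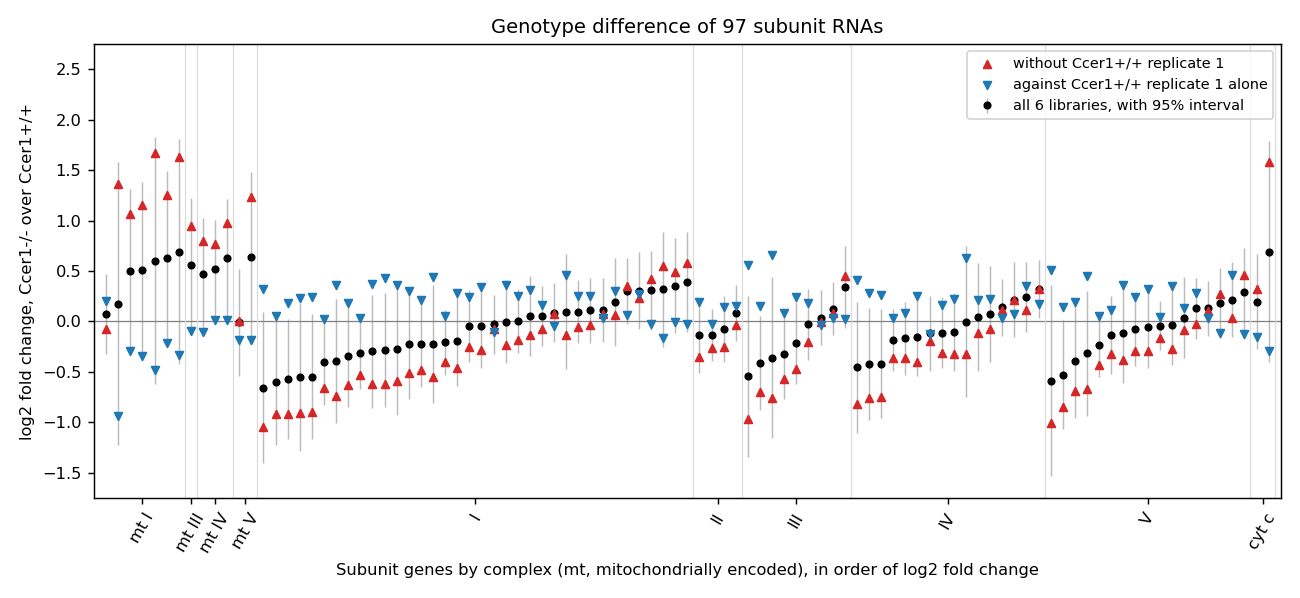
Log2 fold change, Ccer1-/- over Ccer1+/+, of the 97 tested subunit RNAs by complex, from all 6 libraries (black, with the 95% interval of edgeR), without Ccer1+/+ replicate 1 (red) and against Ccer1+/+ replicate 1 alone (blue). The red points lie above the blue ones in 12 of 13 mitochondrial members, mt-Nd4l being the exception, and below them in most nuclear members.

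In complex I, 15 of 36 tested nuclear members had a positive value and 21 a negative one (median log2 fold change -0.04). The level of Ndufb10, an accessory subunit of the membrane arm, was 52.0, 115.8 and 98.8 CPM in replicates 1, 2 and 3 of Ccer1+/+ and 57.2, 66.5 and 55.5 CPM in Ccer1-/-. Its log2 fold change was -0.57 (standard error 0.26, 95% interval -1.17 to 0.02), and the genotypes overlapped because Ccer1+/+ replicate 1 was the lowest library. Ndufs7, a core iron-sulfur subunit, was at 19.0, 40.6 and 31.4 CPM in the Ccer1+/+ libraries and 15.7, 22.8 and 21.4 CPM in Ccer1-/- (log2 fold change -0.60, standard error 0.28). The accessory subunit Ndufb7 had one of -0.41. Ndufv2, a core subunit of the NADH-oxidizing end, lay on the other side, at 140, 109.7 and 111.7 CPM in the Ccer1+/+ libraries and 139.4, 137.9 and 167.7 CPM in Ccer1-/- (log2 fold change 0.30, standard error 0.15). When Ccer1+/+ replicate 1 was left out, 2 members of the complex were called higher (Ndufa5 and Ndufc1) and 16 lower. In that fit 9.21% of all genes were called higher and 12.5% lower.

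Complex II holds no mitochondrially encoded subunit, and the log2 fold changes of its 4 members lay between -0.14 and 0.08. Sdha, the flavoprotein that oxidizes succinate, was at 180.4, 199.4 and 212.4 CPM in the Ccer1+/+ libraries and 173.5, 181.2 and 185.1 CPM in Ccer1-/-. Its log2 fold change was -0.13 (standard error 0.11), that of the iron-sulfur subunit Sdhb -0.07, and those of the membrane anchors Sdhc and Sdhd 0.08 and -0.14. Sdhc, at 54.7 ± 3.22 CPM in the Ccer1+/+ libraries and 57.9 ± 1.55 CPM in Ccer1-/- (SD, n = 3 each), was the only one of the 4 with a positive value. Sdha and Sdhd were called lower without Ccer1+/+ replicate 1, with log2 fold changes of -0.27 and -0.36, where 12.5% of all genes were called lower.

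In complex III, 3 of 9 nuclear members were positive and 6 negative, with a median of -0.21. Uqcrc1, the most abundant, was at 348.4, 643.4 and 569.4 CPM in the Ccer1+/+ libraries and 387.6, 409.8 and 378.7 CPM in Ccer1-/-. Its log2 fold change was -0.41 (standard error 0.21, 95% interval -0.87 to 0.06). Cyc1, the cytochrome c1 that hands electrons to cytochrome c, was at 31.7, 53.4 and 42.5 CPM in the Ccer1+/+ libraries and 34.1, 35.7 and 32.2 CPM in Ccer1-/- (log2 fold change -0.32, standard error 0.19). In both, Ccer1+/+ replicate 1 was the lowest library and replicates 2 and 3 the highest. Uqcrb, a small subunit, was lowest in Ccer1+/+ replicates 2 and 3, with 31.2, 23.9 and 20.9 CPM in the Ccer1+/+ libraries and 32.0, 30.9 and 33.4 CPM in Ccer1-/- (log2 fold change 0.34, standard error 0.18). The small subunit Uqcrq showed a log2 fold change of -0.21. Uqcrb was called higher, and Uqcr10, Uqcr11, Uqcrc1, Cyc1 and Uqcrq lower, once Ccer1+/+ replicate 1 was left out. In that fit 9.21% of all genes were called higher and 12.5% lower.

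Complex IV is where the subunits of both genomes can be set side by side at high levels. Its 3 mitochondrial core RNAs were low in Ccer1+/+ replicates 2 and 3, whereas the nuclear Cox4i1, Cox5b, Cox6a1 and Cox7a2 RNAs were high in them. Not all nuclear members did so. All Ccer1-/- libraries were below Ccer1+/+ replicates 2 and 3 in 7 of 16 tested nuclear members and above them in 3 (Cox6c, Cox7b2 and Ndufa4). Cox4i1, which surrounds the core, was at 188.1, 475.9 and 378 CPM in the Ccer1+/+ libraries and 229, 261 and 269.8 CPM in Ccer1-/- (log2 fold change -0.46, standard error 0.28). The nuclear subunit Cox5b was at 63.0, 128.4 and 116.1 CPM in the Ccer1+/+ libraries and 73.8, 77.2 and 78.9 CPM in Ccer1-/- (log2 fold change -0.42, standard error 0.24). In both, Ccer1+/+ replicate 1 lay below all other libraries and replicates 2 and 3 above them. Cox6a1, with a log2 fold change of -0.42, likewise had Ccer1+/+ replicate 1 lowest and replicates 2 and 3 highest, and Cox7a2 had one of -0.15. Cox6c, a small nuclear subunit, had higher levels in every Ccer1-/- library, with 74.1, 61.0 and 68.1 CPM in the Ccer1+/+ libraries and 80.3, 84.9 and 88.6 CPM in Ccer1-/-. Its log2 fold change was 0.32 (standard error 0.13, 95% interval 0.03 to 0.61, adjusted p = 0.786 from edgeR). In complex IV, 6 of 16 tested nuclear members were positive and 10 negative (median -0.11). Without Ccer1+/+ replicate 1, 0 were called higher and 6 lower, where 9.21% of all genes were called higher and 12.5% lower. Cox6c had an adjusted p of 0.051 from edgeR in that fit.

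In complex V, 6 of 17 nuclear members were positive and 11 negative, with a median of -0.06. Atp5b, the catalytic subunit and the most abundant nuclear member by CPM, was steady at 682.6, 748.5 and 778.9 CPM in the Ccer1+/+ libraries and 715.8, 729.7 and 699.1 CPM in Ccer1-/-, which is a log2 fold change of -0.04 (standard error 0.11, 95% interval -0.29 to 0.20). Atp5a1, its partner in the catalytic head, was at 322.9, 460.4 and 409.9 CPM in the Ccer1+/+ libraries and 343.8, 348 and 326.2 CPM in Ccer1-/- (log2 fold change -0.23, standard error 0.14). Atp5d, a subunit of the central stalk, spread more, with 74.3, 151.9 and 134.2 CPM in the Ccer1+/+ libraries and 80.7, 88.6 and 80.5 CPM in Ccer1-/- (log2 fold change -0.53, standard error 0.24). Atp5l, a subunit of the membrane part, showed a log2 fold change of -0.39 (standard error 0.25). Without Ccer1+/+ replicate 1, Atp5pb of the peripheral stalk was called higher, and Atp5k, Atp5d, Atp5l, Atp5e and Atp5a1 lower. In that fit 9.21% of all genes were called higher and 12.5% lower.

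The cytochrome c genes were lowest in Ccer1+/+ replicates 2 and 3, as most mitochondrial subunits were. Cycs was at 26.3, 6.49 and 7.35 CPM in the Ccer1+/+ libraries and 22.1, 18.03 and 25.2 CPM in Ccer1-/-. Its log2 fold change of 0.69 (standard error 0.48, 95% interval -0.40 to 1.79) was the highest of the nuclear members, and without Ccer1+/+ replicate 1 it was 1.58 (adjusted p = 0.003395 from edgeR). Cyct was at 38.3, 24.2 and 28.8 CPM in the Ccer1+/+ libraries and 32.1, 30.7 and 41.8 CPM in Ccer1-/- (log2 fold change 0.19, standard error 0.21). Cyct dropped less than Cycs in Ccer1+/+ replicates 2 and 3, and its fold change was not called with or without replicate 1. Among the 11 members with the NRF1 core in the promoter, Cycs alone was positive, and the other 10 had log2 fold changes of -0.07 to -0.59 from all 6 libraries. Of all 84 tested nuclear members 51 were negative. Against Ccer1+/+ replicate 1 alone the same 10 were positive (0.11 to 0.66) and Cycs was at -0.30. The GC content was 40.83% in Cycs and 48.53% to 58.88% in the other 10. A link of the fold changes with the motif was not tested.

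**Figure D3:**
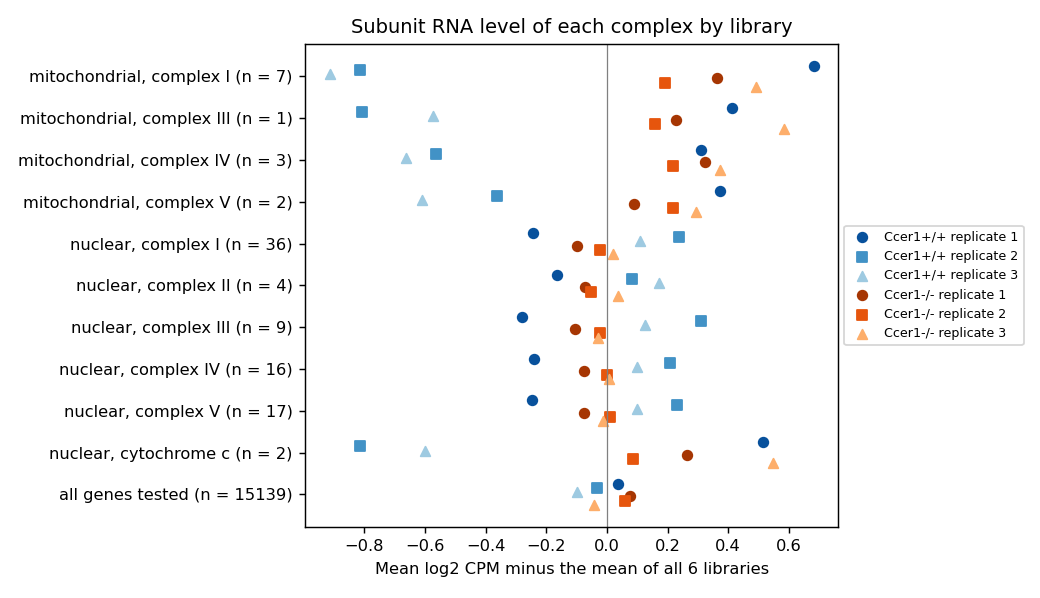
Mean log2 CPM of the subunit RNAs of each complex in each library, minus its mean over all 6 libraries, with the number of genes tested in brackets and all genes at the bottom. In Ccer1+/+ replicates 2 and 3 the mitochondrial rows and cytochrome c lie below 0, and the nuclear rows of complexes I to V lie above it.

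Set against each other, the mitochondrial and nuclear parts differed in proportion between libraries, most of all within Ccer1+/+. The share of counts from mitochondrial members was 1.14%, 0.5454% and 0.4962% in replicates 1, 2 and 3 of Ccer1+/+ and 1.075%, 0.9905% and 1.119% in Ccer1-/-, a mean of 0.7272 ± 0.358% against 1.062 ± 0.0654% (SD, n = 3 each). The exact 95% binomial intervals of these shares, which cover counting error only, spanned 0.4929% to 0.4996% for the lowest and 1.135% to 1.145% for the highest. Nuclear members took 0.5609%, 0.7456% and 0.6761% in Ccer1+/+ and 0.6025%, 0.6317% and 0.6235% in Ccer1-/-. The ratio of mitochondrial to nuclear counts was 2.03, 0.7314 and 0.734 in Ccer1+/+ and 1.79, 1.57 and 1.80 in Ccer1-/-. It was below 1 only in Ccer1+/+ replicates 2 and 3, and Ccer1+/+ replicate 1 had the highest ratio of all libraries.

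On the log2 scale, the mean level of mitochondrial members exceeded that of nuclear members by 2.63, 0.98 and 1.00 in Ccer1+/+ and by 2.26, 2.08 and 2.30 in Ccer1-/-. The means were 1.54 ± 0.95 and 2.21 ± 0.11 (SD, n = 3 each), a difference of 0.68, which is smaller than the SD within Ccer1+/+. It was 1.22 without Ccer1+/+ replicate 1 and -0.42 against replicate 1 alone. In Ccer1+/+, replicate 1 was above both others in 11 of 13 mitochondrial and 19 of 84 nuclear members, where 43.3% of all genes were so, and below both others in 1 mitochondrial and 61 nuclear members, where 36.1% of all genes were. All Ccer1-/- libraries were above Ccer1+/+ replicates 2 and 3 in 11 mitochondrial and 16 nuclear members (29.6% of all genes) and below them in 0 and 44 (22.3% of all genes).

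GC content moved with this difference between libraries. The median GC content of the transcripts was 37.1% in mitochondrial members, 50.4% in nuclear members and 50.3% in all genes tested. Across 97 members, which share libraries and are no replicates of each other, GC content had a Spearman's rho of -0.69 with the log2 level of Ccer1+/+ replicate 1 minus that of replicates 2 and 3 averaged, and across the 84 nuclear members alone one of -0.55. It was -0.45 across the 13 mitochondrial members and -0.68 across 14460 genes. With length, rho was 0.20 across the members. Of the 28 nuclear members of lowest GC content (36.72% to 48.72%), 19 had a positive log2 fold change, of the 28 in the middle 12 did, and of the 28 of highest GC content (53.91% to 60.82%) 2 did. After a curve on length and GC content had been removed from each library, an alternative chosen after seeing the data, the mitochondrial median was 0.18 (10 of 13 positive), the nuclear median -0.09 (28 of 84 positive), and 0 members were called, where 0.00% of 14460 genes were higher and 0.0138% lower.

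**Figure D4:**
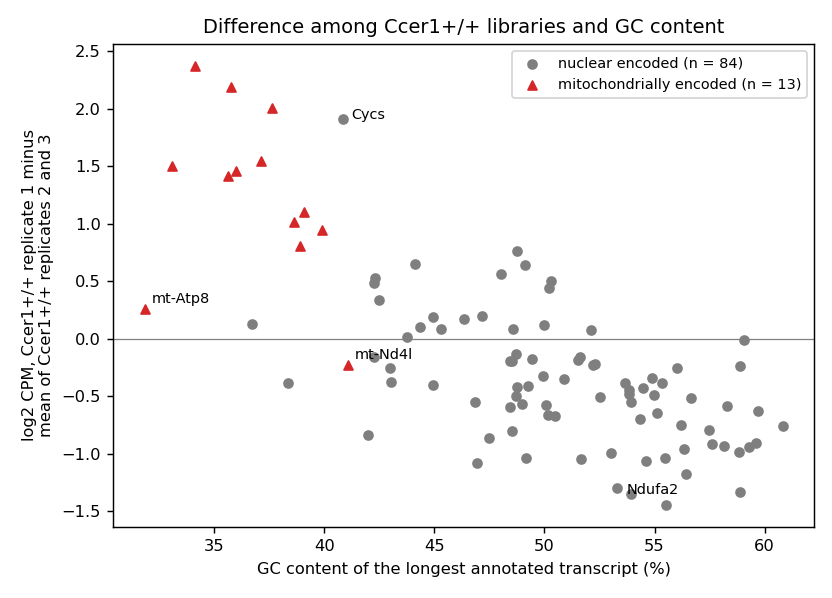
GC content of the transcript (%) against the log2 CPM of Ccer1+/+ replicate 1 minus the mean of Ccer1+/+ replicates 2 and 3, with 1 point per subunit gene (red mitochondrial, grey nuclear). The difference falls as GC content rises (Spearman's rho of -0.69 across 97 genes), and mt-Atp8 and mt-Nd4l lie near 0 at the low end of GC content.

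Germline forms of complex IV subunits and of cytochrome c outweighed their ubiquitous forms per kilobase, in both genotypes. Over the 6 libraries the ratio averaged 31.6 for Cox7b2 over Cox7b (19.3 to 48.8), 10 for Cyct over Cycs (6.93 to 18.7), 8.38 for Cox6b2 over Cox6b1 (6.43 to 11.8) and 5.83 for Cox8c over Cox8a (4.74 to 8.78), as geometric means. The size of each ratio rests on the longest annotated transcripts, most of all for Cyct (655 bases) and Cycs (3123 bases), whose mean levels before division by length were 32.6 and 17.6 CPM. The log2 ratio of Cyct over Cycs was 2.79, 4.15 and 4.23 in Ccer1+/+ and 2.79, 3.02 and 2.98 in Ccer1-/-, so that replicates 2 and 3 of Ccer1+/+ stood above all other libraries. For Cox6b2 over Cox6b1 it was 2.98, 2.93 and 3.56 in Ccer1+/+ and 2.85, 2.68 and 3.40 in Ccer1-/-, highest in replicate 3 of each genotype. The log2 ratio of Cox8c over Cox8a was likewise highest in replicate 3 of each genotype, at 3.13 in Ccer1+/+ and 2.81 in Ccer1-/-. The ratios of the Cyct, Cox6b2, Cox8c and Cox7b2 pairs overlapped between the genotypes. In Ndufa4l2 over Ndufa4, whose ratio averaged 0.977, the mean log2 ratio was 0.14 ± 0.30 in Ccer1+/+ and -0.20 ± 0.12 in Ccer1-/- (SD, n = 3 each). Here the genotypes did not overlap, but the nearest values were -0.07 in Ccer1+/+ and -0.09 in Ccer1-/-.

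**Figure D5:**
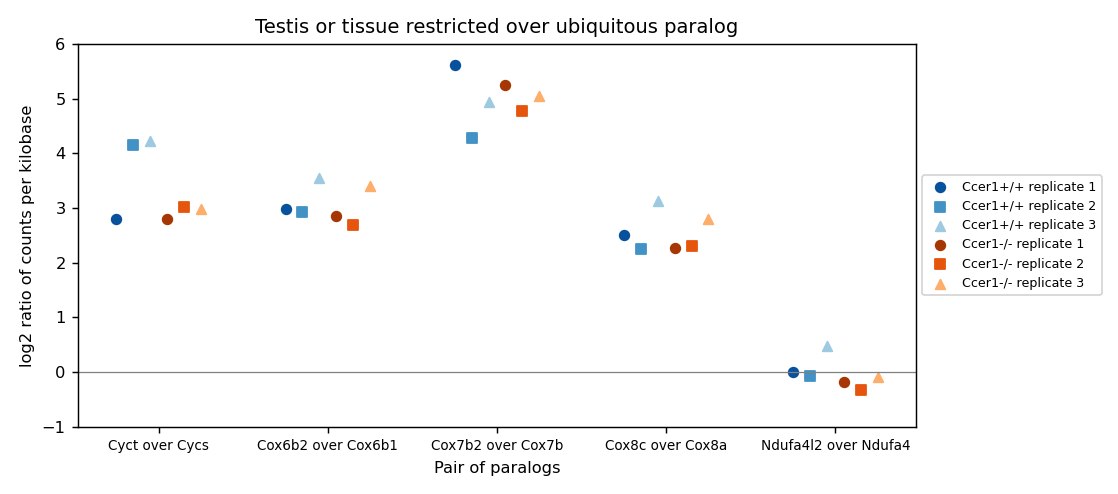
Log2 ratio of counts per kilobase between paralogous subunits in each library, the germline or tissue-restricted form over the ubiquitous form. Cyct over Cycs stands highest in Ccer1+/+ replicates 2 and 3, at 4.15 and 4.23, and the Cox6b and Cox8 pairs in replicate 3 of each genotype.

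The forms typical of muscle and lung were hardly detected. Cox4i2 had 1, 1 and 1 counts in Ccer1+/+ and 0, 3 and 3 in Ccer1-/-, Cox6a2 had 0 or 1 a library, and Cox7a1 had 3 to 12. Cox8b, the muscle form of that subunit, had 0 counts in every library, which allows a level of up to 0.153 to 0.188 CPM (3 counts a library, counting error only). These 4 and the empty row of Ndufb8 did not pass the filter on low counts and were not tested. Among the members that passed, Cox7b was the lowest in the complex IV group, at 3.23 ± 1.27 CPM in the Ccer1+/+ libraries and 3.21 ± 0.471 CPM in Ccer1-/- (SD, n = 3 each).

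Other mitochondrial gene groups had 0 called genes in the comparison of all 6 libraries, where 0.00% of all genes were called higher and 0.00661% lower. Of 51 assembly factors of the complexes, 31 had a positive log2 fold change, with a median of 0.03. Genes for transcription of mitochondrial DNA and handling of its RNA were positive in 23 of 34 (median 0.19), genes of the TCA cycle and pyruvate entry in 12 of 21 (0.04), genes of the outer membrane, import and chaperones in 13 of 23 (0.06), the sperm mitochondrial sheath in 7 of 13 (0.03) and carriers of ADP and phosphate in 3 of 4 (0.22). Mitochondrial ribosomal protein genes were positive in 46 of 77 (0.06) and cytosolic ones in 31 of 78 (-0.11). With Ccer1+/+ replicate 1 left out, where 9.21% of all genes were called higher and 12.5% lower, 4 of 77 mitochondrial ribosomal protein genes were called higher and 11 lower, and of the 78 cytosolic ones 2 and 40. In that comparison 4 assembly factors were called higher and 9 lower, 6 and 4 genes of mitochondrial transcription and RNA handling, 1 and 5 of the TCA cycle, 2 and 3 of the outer membrane and import, 2 and 4 of the sperm mitochondrial sheath and 1 and 0 carriers.

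Transition proteins and protamines, which replace histones in spermatids, were the genes the study followed. The study reported Tnp1, Tnp2, Prm1 and Prm2 as lower in Ccer1-/- testes by RNA sequencing, quantitative PCR and western blot. Levels of Tnp1 were 1266, 2763 and 2338 CPM in the Ccer1+/+ libraries and 677.1, 705.4 and 533.4 CPM in Ccer1-/-. Its log2 fold change was -1.73 (standard error 0.26, unadjusted p = 0.0001202 and adjusted p = 0.786, both from edgeR). All Ccer1-/- libraries lay below all Ccer1+/+ ones in 3.14% of all genes and in 0 of 84 nuclear subunits. Tnp1 in Ccer1+/+ replicate 1 stayed above every Ccer1-/- library. The same order held for Prm1, Prm2 and Tnp2, with log2 fold changes of -0.90, -0.84 and -0.73, so that the 4 had a median of -0.87. Without Ccer1+/+ replicate 1 all 4 were called lower (median -1.12), where 12.5% of all genes were called lower.

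Germ cell and somatic markers of the testis were present in these libraries, with 0 matched markers at 0 counts throughout, and their part in the subunit values was not tested. Summed levels of 14 spermatocyte markers were 4519, 5179 and 5836 CPM in the Ccer1+/+ libraries and 4533, 4650 and 5104 CPM in Ccer1-/-. Hspa2, Ybx2 and Piwil1 carried most of that sum, and the mean log2 level of the list ran otherwise, at 0.17, -0.31 and -0.10 relative to the mean of all libraries in Ccer1+/+ and 0.02, -0.01 and 0.23 in Ccer1-/-. Sycp1, a protein of the synaptonemal complex that joins paired chromosomes in meiosis, was at 66.8, 17.8 and 24.5 CPM in the Ccer1+/+ libraries and 40.1, 40.6 and 56.3 CPM in Ccer1-/-. Sycp2, Sycp3 and Hormad1, which also act on meiotic chromosomes, were likewise lowest in Ccer1+/+ replicates 2 and 3, the libraries in which most mitochondrial subunits were lowest. Meiob of the same list was also lowest in Ccer1+/+ replicates 2 and 3. Hspa2, Piwil1, Tex101, Ccna1 and Aurkc ran the other way and were highest in those replicates, and the remaining spermatocyte markers did neither. Hspa2 was at 1249, 1800 and 1780 CPM in the Ccer1+/+ libraries and 1227, 1269 and 1264 CPM in Ccer1-/-. The genes named here were chosen after their values were seen. Elongating spermatid markers, 14 in number, summed to 18570, 20200 and 20870 CPM in Ccer1+/+ and to 20100, 19930 and 19960 CPM in Ccer1-/-. Round spermatid markers summed to 2781 to 2974 CPM in the Ccer1+/+ libraries and 2788 to 2875 CPM in Ccer1-/-, and spermatogonial ones to 175 to 230.1 and 212.7 to 222.8 CPM. In replicate 3 of both genotypes the macrophage, endothelial and Sertoli lists were below the other replicates of that genotype. Macrophage markers summed to 307.4, 334.6 and 274.1 CPM in the Ccer1+/+ libraries and 340.5, 334 and 267.4 CPM in Ccer1-/-, and Sertoli markers to 1309, 1598 and 1077 CPM and 1483, 1484 and 1034 CPM. Aif1 carried most of the macrophage sum, at 212.8 to 245.1 CPM a library. Relative to the mean of all libraries, the mean log2 level of the macrophage list was 0.47, 0.60 and -1.17 in Ccer1+/+. It was 0.49, 0.55 and -0.94 in Ccer1-/-. Leydig markers summed to 1102 to 2040 CPM in the Ccer1+/+ libraries and 1135 to 1634 CPM in Ccer1-/-, peritubular and smooth muscle ones to 461.9 to 684 and 413.4 to 562.5 CPM, endothelial ones to 41.3 to 72.3 and 33.7 to 57.6 CPM, and red blood cell ones to 32.2 to 63.0 and 28.3 to 46.9 CPM. Actg2 carried most of the peritubular sum. The mean log2 level of the peritubular list was also lowest in replicate 3, at 0.19, 0.55 and -0.74 in Ccer1+/+ and 0.37, 0.48 and -0.85 in Ccer1-/-. Medians of the log2 fold change over these lists ran from -0.28 in red blood cell to 0.12 in Leydig cell markers, with 0 genes called. From all 6 libraries, 0.00% of all genes were called higher and 0.00661% lower. In the comparison without Ccer1+/+ replicate 1, 5 spermatocyte markers were called higher and 2 lower, 1 and 4 round spermatid markers, 2 and 5 elongating spermatid markers, 1 and 0 spermatogonial markers, 1 and 0 Sertoli markers and 0 and 1 peritubular markers, and 0 of the other somatic lists. The shares of all genes called in that comparison were 9.21% higher and 12.5% lower.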

How the data were processed

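RNA of adult testes was sequenced in 6 libraries, 3 per genotype. The authors enriched messenger RNA with oligo(dT) beads and deposited an estimated count per Ensembl gene, about 90% of which were whole, unscaled across libraries. Tools listed in the submitters' processing notes are StringTie 1.3.1, HISAT2, Bowtie2 2.2.8 and fastp 0.18.0, with build GRCm38 (mm10). The sources used here do not name the counting program.

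Counts were rounded. filterByExpr (minimum count 10, minimum total 15) kept 15139 genes and left out 7120. Genotypes were compared with edgeR 4.0.16 in R 4.3.3 (TMM scaling, robust quasi-likelihood F test, two-sided, no covariate), with Benjamini-Hochberg adjustment over all genes tested, and DESeq2 1.42.0 was an alternative. Log2 CPM used a prior count of 2. A symbol was found for 20314 genes from GENCODE vM1, updated through RefSeq synonyms, and 3 rows whose older names matched were left out (now Emc8, Dmac2l and Dmac2). NDUFA4 was counted with complex IV. Transcript length and GC content come from the longest GENCODE vM1 coding transcript (build NCBIM37) and gene positions from RefSeq GRCm38.p6. The curve on length and GC content used natural splines of 5 degrees of freedom. Members and lists were chosen with earlier results of these data known, so no test over a list was made. Named were all mitochondrial members, in each complex and for cytochrome c the 3 nuclear members of smallest p and the 2 of highest mean CPM, the paralog pairs, any member called, and the study's own genes. A gene that this rule names is not reported here. Genes called only without Ccer1+/+ replicate 1 were named after their values were seen. The procedure was tested on simulated counts. The Hi-C samples were not analysed here.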

Additional observations from a re-analysis of the deposited data

How the results depend on the processing

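The counts of called members were 0 of 13 mitochondrial and 0 of 84 nuclear under every scaling tried (DESeq2 size factors, upper quartile, library totals, and TMM without the mitochondrial or without the Tnp and Prm genes), with DESeq2's test, with no filter, with a filter of 10 counts in each library and at an adjusted p under 0.10. In the main fit 0.00% of all genes were called higher and 0.00661% lower, and with DESeq2's test 0.00661% and 0.0264%. Leaving out 1 library at a time gave 0 to 11 called mitochondrial and 0 to 39 called nuclear members. Only the fit without Ccer1+/+ replicate 1 gave any (11 and 39, beside 9.21% of all genes called higher and 12.5% lower). The mitochondrial median log2 fold change ran from 0.26 to 1.07 over these fits and the nuclear one from -0.28 to -0.026. Against Ccer1+/+ replicate 1 alone, where the lone library is assumed to vary like the others, they were -0.18 and 0.19. The cause was not tested. Of 50 single genes and ratios, 28 passed the threshold without Ccer1+/+ replicate 1, and none changed its side when any other library was left out. Under the other scalings, filters and tests 45 of them were compared, and none changed its side of the threshold.

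The replicate numbers were not treated as pairs in the main fit. The correlations of the deviations were 0.07, 0.35 and 0.47 for same-numbered samples and -0.45 to 0.27 for the others. Those of replicates 2 and 3 were the highest, so some shared structure by replicate number is possible. With a replicate block, 0 mitochondrial and 0 nuclear members were called, where 0.00% of all genes were called higher and 0.00661% lower. The medians of the mitochondrial and nuclear members were then 0.67 and -0.05.

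With 3 libraries per genotype, 1 of which resembles the other genotype, differences of the size seen among the mitochondrial members could not be told from the spread within Ccer1+/+. Depth limits the members with few counts, among them Cox7b, Atp5k, mt-Atp8 and mt-Nd6.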
